A study of Mus musculus with 4 samples.

Results

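The genes described here encode splicing factors and related RNA-binding proteins in mouse embryonic fibroblasts (MEFs), and the question was where among them the histone demethylase Fbxl10 was found. They are the protein-coding genes whose symbols begin with Srsf, Sf3a or Sf3b and Prpf (each followed by a number), or with Hnrnp or Snrp. The rule took 66 of 21887 protein-coding genes on the autosomes, X and Y: 11 Srsf, 21 Hnrnp, 9 Sf3, 12 Snrp and 13 Prpf genes. One of them, Hnrnpa1l2-ps2, is listed as protein-coding although its symbol carries the mark of a pseudogene. The rule itself uses symbols and no measured value.

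All MEFs of the study came from a gain-of-function model that carries HA-tagged Fbxl10 (also called Kdm2b). Induced cells received 1 µg/ml doxycycline for 48 hours to switch the protein on, and non-induced cells carried the same transgene without that treatment. The labels name neither the sequence that drives the transgene nor whether MEFs of several embryos were pooled. ChIP-seq, the sequencing of DNA that an antibody to the HA tag pulled down with chromatin, gave 1 peak list per condition, and the 2 input libraries were not analysed here. The protocol speaks of several independent samples, and how they relate to the lists is not stated, so there was no replicate check and no test between conditions was made. The lists hold no expression values, so the cell type could not be checked against markers.

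There were 5497 induced and 10532 non-induced peaks. Each peak carries a score, the authors' own value, and no peak of either list scored below 50. The labels do not say how it was computed, and a common scale of both lists was not tested. Read depth is unknown. Neither list had a peak in Kdm2b itself (0 and 0 peaks), the gene of the induced protein.

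Splicing removes introns from pre-mRNA in the spliceosome, which is built from small nuclear ribonucleoproteins (snRNPs) and many further proteins. SR proteins (Srsf genes) bind exons and help to recruit the spliceosome, and hnRNPs coat nascent transcripts and often oppose SR proteins. Sf3a and Sf3b proteins hold the U2 snRNP at the branch point. The Snrp genes encode the Sm proteins of the particle cores and other snRNP proteins. Prpf proteins belong to the tri-snRNP and to the steps of assembly and catalysis. Most of these genes are expressed in all cells from CpG-rich promoters. Fbxl10 has a CXXC zinc finger that binds unmethylated CpG dinucleotides, and the sequences printed next mark every CpG of the reference. Methylation was not measured.

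The promoters printed here belong to those members with a promoter entry that had the highest induced peaks at their start, up to a pair for each family. Hnrnpll, whose peak (153.63) is higher than that of Hnrnpab, had no entry. Each line gives the 250 bases before the annotated start, 5′ to 3′ in the direction of transcription, with every CpG in capitals (RefSeq, assembly GRCm38.p6, equal to mm10 in its coordinates). For the SR proteins these were Srsf7 (chr17:80207306-80207555 on the minus strand), with 23 CpGs, and Srsf3 (chr17:29032410-29032659 on the plus strand), with 35. An induced peak covered all 250 bases of both.
Srsf7: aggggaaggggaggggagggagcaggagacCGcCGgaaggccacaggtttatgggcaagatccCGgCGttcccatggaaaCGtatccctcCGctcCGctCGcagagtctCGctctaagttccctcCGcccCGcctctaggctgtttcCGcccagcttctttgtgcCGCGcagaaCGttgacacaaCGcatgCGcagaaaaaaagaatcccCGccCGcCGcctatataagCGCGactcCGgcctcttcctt
Srsf3: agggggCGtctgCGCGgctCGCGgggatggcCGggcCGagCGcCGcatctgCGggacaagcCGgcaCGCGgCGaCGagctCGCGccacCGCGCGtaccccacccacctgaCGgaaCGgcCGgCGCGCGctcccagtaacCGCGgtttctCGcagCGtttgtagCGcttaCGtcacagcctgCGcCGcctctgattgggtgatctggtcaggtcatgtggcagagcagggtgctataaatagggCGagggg

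Among the hnRNPs, Hnrnpr (chr4:136310692-136310941 on the plus strand) and Hnrnpab (chr11:51606882-51607131 on the minus strand) each had 23 CpGs in the 250 bases. Induced peaks covered both stretches whole, but in each case it was the lower of the gene's peaks that did so.
Hnrnpr: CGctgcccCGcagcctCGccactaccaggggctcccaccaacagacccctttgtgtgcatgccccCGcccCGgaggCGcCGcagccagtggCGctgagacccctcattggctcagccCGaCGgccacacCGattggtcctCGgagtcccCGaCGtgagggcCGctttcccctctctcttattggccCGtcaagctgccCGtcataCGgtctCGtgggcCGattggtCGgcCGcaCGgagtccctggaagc
Hnrnpab: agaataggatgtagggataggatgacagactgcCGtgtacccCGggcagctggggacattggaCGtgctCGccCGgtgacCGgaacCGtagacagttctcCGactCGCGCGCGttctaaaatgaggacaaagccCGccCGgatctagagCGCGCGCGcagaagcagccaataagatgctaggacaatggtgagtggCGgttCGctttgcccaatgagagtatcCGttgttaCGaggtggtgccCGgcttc

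For the branch point proteins, Sf3a2 (chr10:80798485-80798734 on the plus strand) had 37 CpGs, the most of the printed set, and lay whole under its peak. Sf3b2 (chr19:5295458-5295707 on the minus strand) had 17, and its peak covered 109 of the 250 bases.
Sf3a2: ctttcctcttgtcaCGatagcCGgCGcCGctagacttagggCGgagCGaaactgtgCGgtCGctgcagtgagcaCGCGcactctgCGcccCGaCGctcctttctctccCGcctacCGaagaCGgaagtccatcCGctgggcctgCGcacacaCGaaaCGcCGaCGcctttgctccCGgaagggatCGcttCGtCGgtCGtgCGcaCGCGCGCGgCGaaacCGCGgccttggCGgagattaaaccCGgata
Sf3b2: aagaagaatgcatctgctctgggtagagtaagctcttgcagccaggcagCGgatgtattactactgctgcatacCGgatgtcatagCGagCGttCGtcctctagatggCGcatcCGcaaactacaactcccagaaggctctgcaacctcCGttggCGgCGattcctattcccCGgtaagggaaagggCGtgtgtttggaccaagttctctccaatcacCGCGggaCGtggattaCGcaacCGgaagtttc

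Of the snRNP proteins, Snrpa (chr7:27196272-27196521 on the minus strand) had 12 CpGs, the fewest of the printed set, and its peak lay downstream, over 0 of these bases. Snrpb2 (chr2:143062819-143063068 on the plus strand) had 19 CpGs, all under its peak.
Snrpa: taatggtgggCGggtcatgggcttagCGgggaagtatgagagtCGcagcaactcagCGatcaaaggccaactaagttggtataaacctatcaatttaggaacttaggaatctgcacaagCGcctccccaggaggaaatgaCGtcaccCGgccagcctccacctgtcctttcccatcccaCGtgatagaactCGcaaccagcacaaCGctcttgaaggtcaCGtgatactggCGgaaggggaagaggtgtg
Snrpb2: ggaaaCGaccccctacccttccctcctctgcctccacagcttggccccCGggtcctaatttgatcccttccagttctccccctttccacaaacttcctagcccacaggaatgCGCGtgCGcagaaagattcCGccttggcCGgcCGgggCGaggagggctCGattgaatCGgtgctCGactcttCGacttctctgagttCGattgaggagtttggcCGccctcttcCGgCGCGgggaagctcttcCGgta

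Of the Prpf genes, Prpf4 (chr4:62408533-62408782 on the plus strand) had 14 CpGs and Prpf3 (chr3:95855886-95856135 on the minus strand) had 23, and all 250 bases of both lay under an induced peak.
Prpf4: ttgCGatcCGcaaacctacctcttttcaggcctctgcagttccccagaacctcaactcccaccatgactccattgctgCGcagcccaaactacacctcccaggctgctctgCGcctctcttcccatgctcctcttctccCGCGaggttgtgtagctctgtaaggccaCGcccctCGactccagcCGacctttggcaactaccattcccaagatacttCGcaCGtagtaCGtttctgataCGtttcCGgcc
Prpf3: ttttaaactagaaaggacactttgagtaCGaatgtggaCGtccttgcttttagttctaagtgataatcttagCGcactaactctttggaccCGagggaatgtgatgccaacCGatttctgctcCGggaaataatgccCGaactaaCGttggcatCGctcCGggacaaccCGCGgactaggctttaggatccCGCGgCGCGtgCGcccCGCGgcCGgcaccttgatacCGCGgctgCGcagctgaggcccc

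Induced peaks were found at many splicing factor genes, and non-induced peaks were found next to few of them. Within 1 kb of the start or end of the gene, 23 of 66 members (34.8%, exact 95% interval 23.5 to 47.6) had an induced peak. Over all protein-coding genes the share was 13.4% (2930 of 21887). No member had such a peak among the non-induced ones (0 of 66), which allows a share of up to 4.55%, beside 1.59% (348 genes) over all protein-coding genes. Within 5 kb, 25 members (37.9%, 26.2 to 50.7) had an induced peak against 18.4% of all genes, and 4 (6.06%, 1.68 to 14.8) a non-induced peak against 5.36%. The non-induced share was thus near that of all genes. Intervals cover counting error only, and neighbouring genes can share a peak.

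The 23 members had 26 different induced peaks within 1 kb, of which 0 overlapped a non-induced peak. The same share over all induced peaks is not given here, so this is not read as particular to these genes. Scores of the 26 peaks ran from 50.92 to 212.74. Their median was 90.61, beside 78.57 over the 2591 induced peaks of all gene borders. Peak widths had a median of 947.5 bp, beside 864 bp. A score of at least 100 was reached at 10 members (15.2%), against 4.25% of all genes. Hnrnpr, Hnrnpab and, counting its far end, Sf3b2 had more than 1 induced peak within 1 kb, which is 4.55% of the members against 0.804% of all genes. For neither of these shares is a background of genes with CpG-rich promoters given here.

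**Figure D1:**
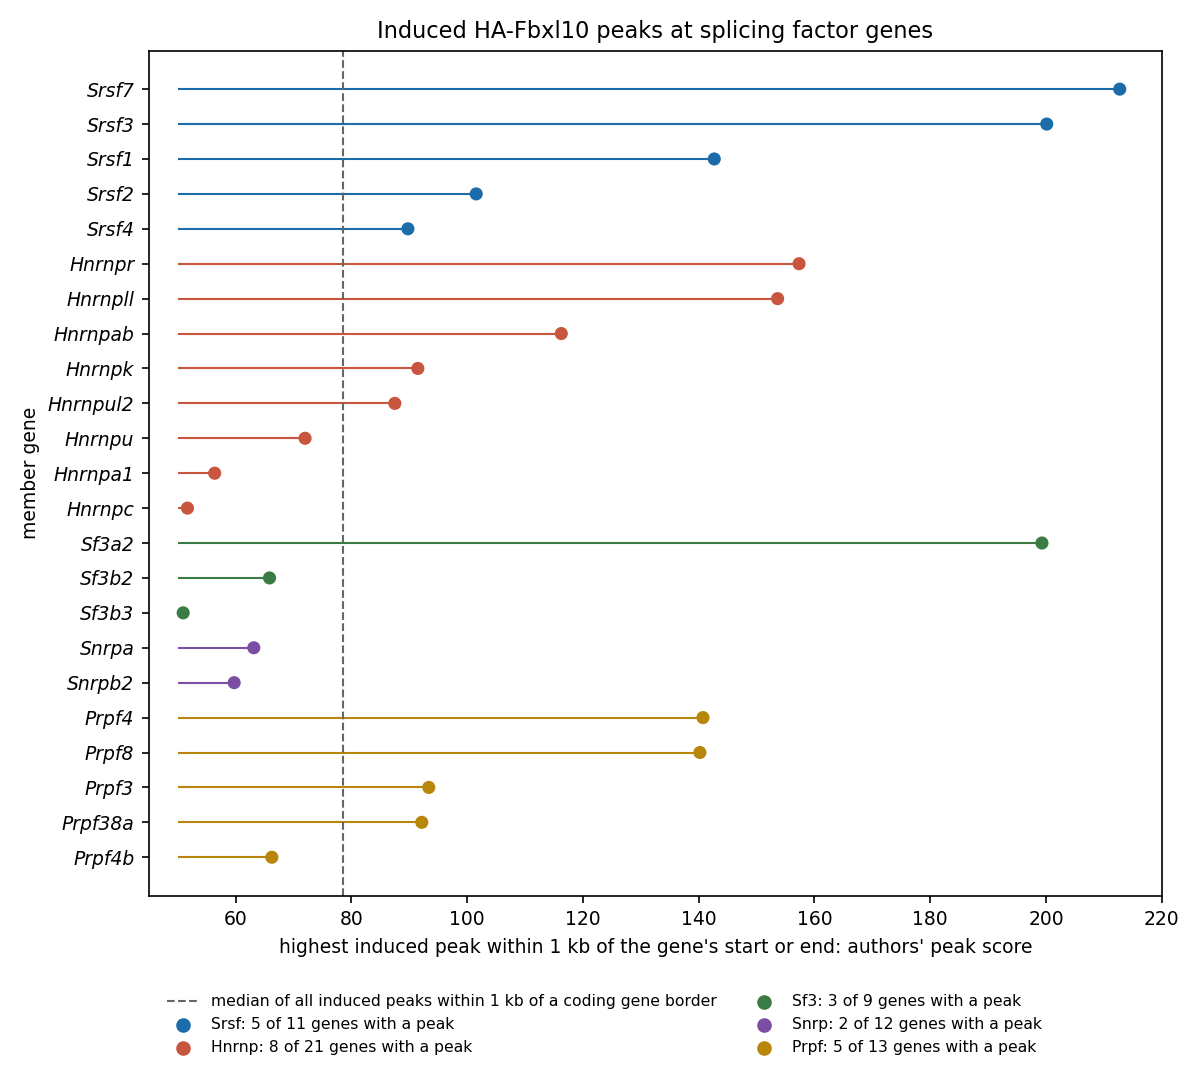
Highest induced peak within 1 kb of the start or end of each of the 23 marked members, as the authors' peak score (horizontal axis, 1 point per gene, lines drawn from the lowest score of the list, colour by family). The dashed line is the median of all induced gene border peaks (78.57); all 5 marked Srsf genes lie above it and both marked Snrp genes below it.

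SR protein genes had the highest median score of the families, 142.68 over the genes with a peak. Of the 11, 5 (45.5%, exact interval 16.7 to 76.6) had an induced peak within 1 kb, beside 13.4% of all protein-coding genes. Srsf7, whose protein also acts as an adaptor in mRNA export, had the highest peak of all members (212.74). It is higher than 98.0% of the induced list, spans 1317 bp over the start, and also covers the start of Gemin6, a gene of the complex that assembles snRNPs. Srsf3, which encodes the smallest SR protein, had a peak of 200.13 that ran from 1118 bp upstream to 523 bp downstream of its start. Srsf1, the classical splicing factor ASF/SF2, had a peak of 142.68 with its middle 8 bp upstream of an annotated start. All 3 peaks therefore lay over a start site.

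At Srsf2, which encodes SC35, a marker protein of nuclear speckles, the peak within 1 kb (101.55) covered the outer border at the gene's start. It ended 195 bp upstream of the nearest annotated start, which lies inside the gene. A lower peak (51.13) lay inside the gene, 1399 bp from its border and within 1 kb of Mfsd11. At Srsf4 the peak (89.75) began 21 bp upstream of a start and extended 1197 bp into the gene. The peaks of Srsf2 and Srsf4 thus lay mostly on 1 side of these annotated starts. Srsf11 had an induced peak of 51.33 at 5150 bp from the outer border of the gene, just outside the wider window but 231 bp from an internal annotated start. Srsf5, Srsf6, Srsf9, Srsf10 and Srsf12 had no peak of either list within 5 kb.

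Among the 21 hnRNP genes, 8 (38.1%, 18.1 to 61.6) had an induced peak within 1 kb, beside 13.4% of all protein-coding genes. At Hnrnpr the higher peak (157.33) covered a start inside the gene and the lower one (80.08) the outer start. Hnrnpab likewise had a lower peak of 58.78 over the start and a higher one (116.25) that began 368 bp downstream. Hnrnpll, which encodes a splicing regulator known from lymphocytes, had a peak of 153.63 that also covered the start of 4933407O12Rik. These 3 genes held the hnRNP peaks within 1 kb that scored at least 100.

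Hnrnpk, whose protein binds C-rich RNA, had a peak of 91.47 from 792 bp upstream to 48 bp downstream of a start, which also reached the start of Rmi1. Hnrnpul2 had a peak of 87.49, shared with Ttc9c, and a second one (78.91) 2929 bp beyond its border, at Bscl2 and Gng3. Hnrnpu, which encodes a protein of nuclear scaffold and chromatin, had a peak of 71.98 over a start, and a higher peak (105.62) lay 1697 bp beyond its other end, over the start of Cox20. The higher peak near Hnrnpu was thus at another gene's start.

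Hnrnpa1, which encodes a splicing repressor protein, and Hnrnpc, which binds uridine tracts, had low peaks of 56.36 and 51.66. The peak of Hnrnpa1 was within 1 kb of the start of Cbx5 too, and that of Hnrnpc of the start of Rpgrip1. Hnrnph1, which binds G runs, had a peak of 67.05 over an internal annotated start, 1545 bp from the outer border, so it counts only in the wider window. No induced peak lay within 5 kb of Hnrnpa0, Hnrnpa1l2-ps2, Hnrnpa2b1, Hnrnpa3, Hnrnpd, Hnrnpdl, Hnrnpf, Hnrnph2, Hnrnph3, Hnrnpl, Hnrnpm and Hnrnpul1. Hnrnph2 is the member on chromosome X, where 0 of 966 genes had an induced peak within 1 kb.

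Of the 9 Sf3 genes, 3 (33.3%, 7.49 to 70.1) had an induced peak within 1 kb. This interval includes the 13.4% of all protein-coding genes. Sf3a2, a subunit that joins Sf3a to the U2 snRNP, had a peak of 199.3, higher than 97.2% of the list. At 1825 bp it was the widest of the member peaks, mostly upstream of the start, and it covered the start of Plekhj1 as well. Sf3b2 had a peak of 52.6 over its start and one of 65.84 over its far end, where Pacs1 starts. Sf3b3 had the lowest member peak (50.92), shared with Cog4. Sf3b1, which contacts the branch point, and Sf3a1, Sf3a3, Sf3b4 and Sf3b6 had no peak of either list within 5 kb, and Sf3b5 had no induced peak there.

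The Snrp genes had few induced peaks within 5 kb, all low. Of the 12 Snrp genes, 2 (16.7%, 2.09 to 48.4) had an induced peak within 1 kb, near the 13.4% of all genes. Snrpa, which encodes a U1 snRNP protein, had a peak of 63.12 over an annotated start, also at BC024978. Snrpb2, which encodes its U2 counterpart, had a peak of 59.73 over its start. Of the genes for the Sm ring, Snrpb, Snrpd1, Snrpd2, Snrpd3, Snrpe, Snrpf and Snrpg had no peak of either list within 5 kb, and neither did Snrpa1, Snrpc and the imprinted gene Snrpn. No Snrp gene gained an induced peak with the wider window (2 of 12 in both).

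Of the 13 Prpf genes, 5 (38.5%, 13.9 to 68.4) had an induced peak within 1 kb, beside 13.4% of all protein-coding genes. Prpf4 and Prpf3 encode partners in the U4/U6 snRNP. Their peaks (140.73 and 93.36) both covered the start, and that of Prpf4 covered the start of Cdc26 too. Prpf38a, a factor of spliceosome activation, had a peak of 92.15 that ended 109 bp upstream of its start. Prpf4b, a splicing kinase, had a peak of 66.24 that covered the outer border at the gene's start. It ended 576 bp upstream of the nearest annotated start, which lies inside the gene.

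Prpf8 encodes the protein at the heart of the catalytic core, and its peak (140.2) was not at its start but 627 bp beyond its far end, over the start of Rilp. This was the most distant peak within 1 kb. Prpf6 had a peak of 52.31 at 2190 bp upstream of its start, 305 bp from Samd10, and thus only within 5 kb. Prpf18, Prpf19, Prpf31, Prpf38b, Prpf39 and Prpf40b were among the genes with no peak of either list within 5 kb.

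The 4 non-induced peaks within 5 kb lay at Sf3b5 (74.77), Hnrnpa1 (63.91), Prpf4b (52.27) and Hnrnpll (51.4). Their distances from the gene border were 4848, 1206, 1161 and 3847 bp, so the nearest, at Prpf4b, lay just outside the narrow window. Hnrnpa1, Prpf4b and Hnrnpll had both an induced and a non-induced peak within 5 kb, at different places. The share of all genes with both is not given here, so this is not read as particular to these genes. At Prpf4b the non-induced peak began 452 bp downstream of the annotated start next to which the induced peak lay upstream. Peaks more than 5 kb inside a member gene included, besides that of Srsf11, an induced peak in Prpf18 (66.35) and non-induced peaks in Prpf39 (50.63) and Snrpn (50.42). The peak in Snrpn lay 3282 bp upstream of an internal annotated start. The median distance from a member to the nearest induced peak was 18.964 kb, beside 89.904 kb over all genes, and to the nearest non-induced peak 157.962 kb, beside 138.397 kb.

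**Figure D2:**
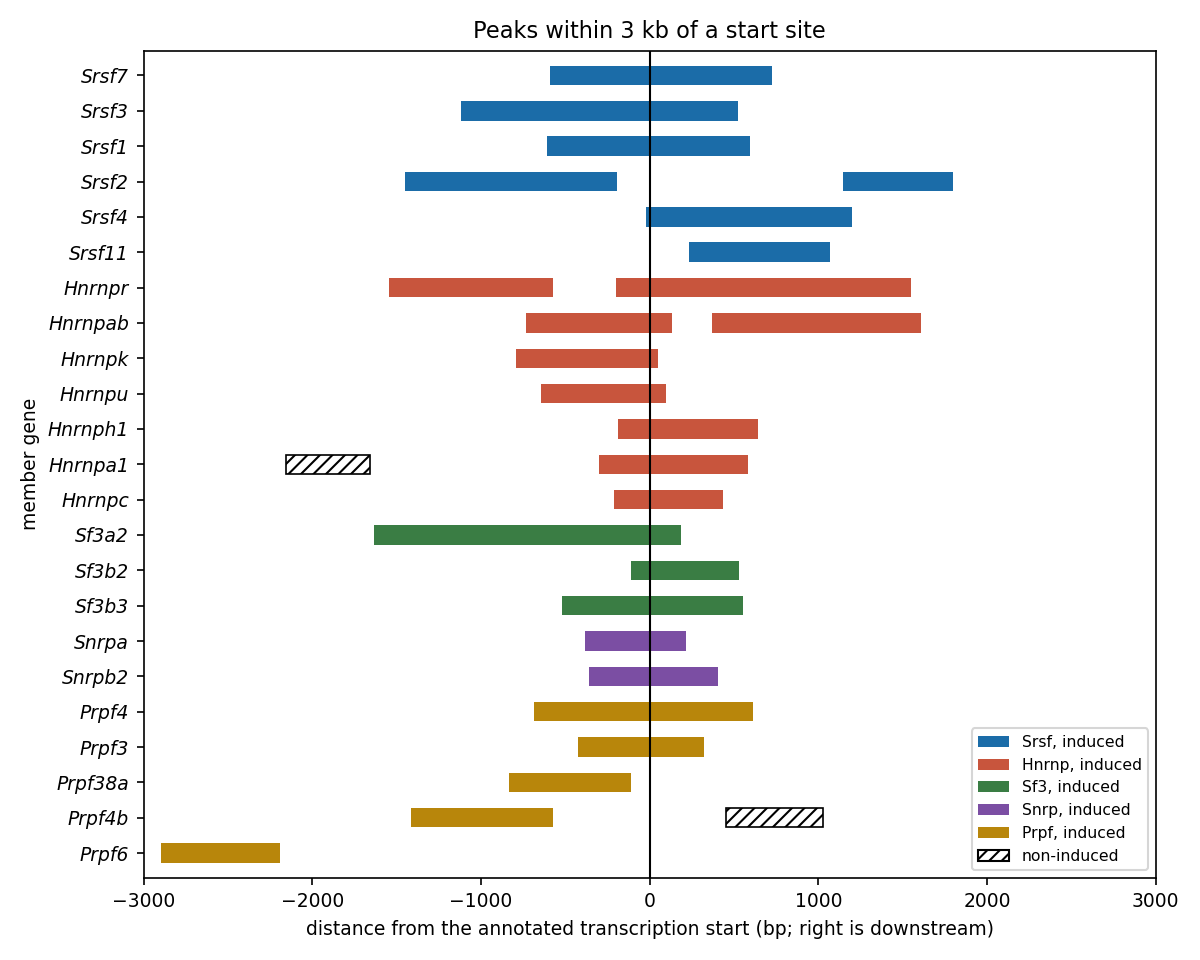
Extent of each peak within 3 kb of a start site, in bp from 1 annotated start per member (vertical line, downstream to the right). That start is the one nearest to the gene's highest induced peak within 3 kb of a start. Filled bars are induced peaks by family and hatched bars non-induced peaks, with 1 row per member. Most induced bars cross the line, and the non-induced bars (Hnrnpa1 and Prpf4b) lie off it. Because induced peaks placed the line, this contrast is not read as a result. A bar off the line can cover another start of its gene, as the lower peak of Hnrnpr does.

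The peaks were at the starts of these genes rather than at their far ends. Of the 58 members with an annotated start, 20 (34.5%) had an induced peak within 1 kb of the start and 2 (3.45%) within 1 kb of the far end. Over the 17492 genes with an annotated start these shares were 12.7% and 1.62%. The far-end peaks were those of Prpf8 and Sf3b2, and both lay over the start of the next gene. Of the 26 member peaks, 24 were at members with an annotated start and 18 of these covered one. Starts inside a gene count here, and the same share over all genes is not given. Among the 24 pairs of a member and a peak within 1 kb of any annotated start, the peak middle lay at a median of -22.5 bp (upstream), beside 76 bp downstream over all such pairs of genes and peaks. In this last count Hnrnph1 and Srsf11 are included and the far ends are not.

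Many of the member peaks also served another gene. Of the 26 peaks, 12 lay within 1 kb of a border of another protein-coding gene, in each case its annotated start. For 11 of the 23 marked members (47.8%) every peak within 1 kb was of this kind, against 32.6% of all marked genes. Counting a peak only for the gene border nearest to its middle left 19 marked members. The ChIP signal at such a peak cannot be assigned to 1 gene of the pair.

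The promoters of these genes were richer in CpG than most, whether or not they had a peak. The CpG ratio is the observed number of CpGs over that expected from the C and G content, here in the 300 bases from 250 before to 50 after the outermost annotated start. Its median was 0.92 over the 58 members (range 0.13 to 1.29), against 0.58 over all 17492 genes. It was 0.97 in the 21 marked members with a promoter entry and 0.88 in the 37 others. Medians of 25 and 24 CpGs per window stood behind these values. A ratio of at least 0.6 was found in 54 of the 58 members (93.1%) and in 48.4% of all genes. The 4 members below it, Hnrnpa1l2-ps2 (0.21), Hnrnpf (0.38), Snrpa1 (0.37) and Snrpn (0.13), had no induced peak within 5 kb.

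Among genes with a ratio of at least 0.6, a background chosen after the data were seen, 21 of 54 members (38.9%, 25.9 to 53.1) had an induced peak within 1 kb, beside 23.0% of all 8466 such genes. Below 0.6 it was 4.73% of all genes. By class, 10 of 22 members with a ratio of at least 1.0 had a peak, 10 of 24 with 0.8 to 1.0 and 1 of 8 with 0.6 to 0.8, against 26.3%, 24.2% and 20.4% of all genes. The member with a peak in the lowest of these classes was Snrpa (0.62). What CpG content contributes to the share of marked members was not tested.

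**Figure D3:**
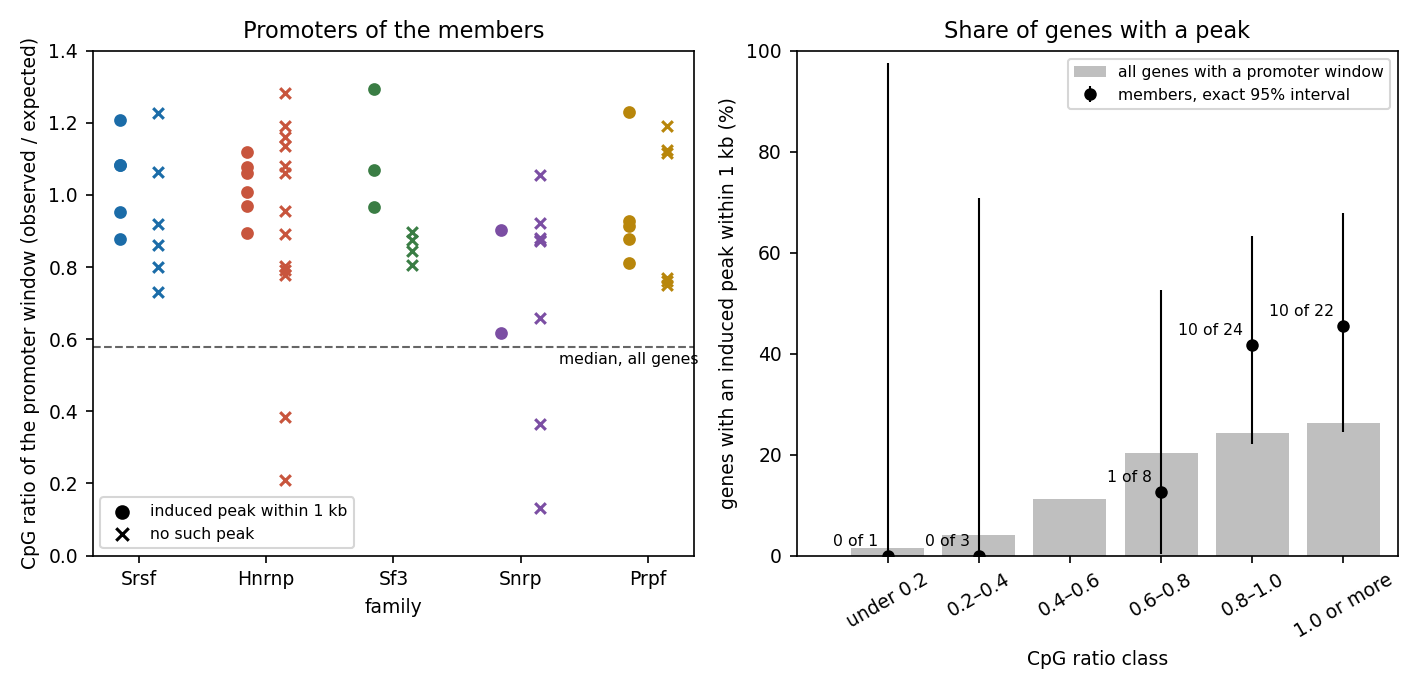
Left, CpG ratio (observed over expected) of the promoter window of each member with an entry, by family, with circles for members with an induced peak within 1 kb and crosses for the others; the dashed line is the median of all genes (0.58). Right, percent of genes with an induced peak within 1 kb by class of CpG ratio, as bars for all genes and points with exact 95% intervals for members, where 10 of 22 and 10 of 24 members in the upper classes had a peak.

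Short motifs were searched on both strands of the same windows, as a description of letters and not of binding. CCGGAAG, the core of many ETS factor sites, was in 19 of 58 members (32.8%), against 11.9% of all promoters of this length and 19.9% of those with a CpG ratio of at least 0.6. It was in 6 of the 7 Sf3 promoters with an entry (Sf3a1, Sf3a2, Sf3a3, Sf3b2, Sf3b3 and Sf3b6) and in 2 of 19 Hnrnp promoters. Marked members (7 of 21, 33.3%) and the others (12 of 37, 32.4%) held it at nearly the same share. TATAAA, the letters of the TATA box, was counted anywhere in the window, so a hit need not be a TATA box. TATAAA was in 5 of the 21 marked members (Hnrnpab, Sf3b3, Snrpa, Srsf2 and Srsf3) and 2 of the 37 others. It was in 13.3% of all promoters, 5.85% of those with a CpG ratio of at least 0.6 and 7.04% of those of all genes with an induced peak within 1 kb.

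The motif of NRF1, a regulator of many CpG-rich promoters, was in 15.5% of members and 6.66% of all promoters, and 12.9% of those with a ratio of at least 0.6. GGGCGG, the GC box, was in 65.5%, 46.3% and 74.1% of these sets, and CCAAT was in 29 of 58 members, 39.2% and 37.9%. The E-box CACGTG was in 13.8%, 7.91% and 11.5%, and the palindrome known as the Kaiso motif in 1.72%, 0.726% and 1.38%. TGACGTCA, a cyclic AMP response element, was in 3.45% of members, above the 2.33% of all promoters but below the 3.87% of those with a ratio of at least 0.6. In the printed sequences CCGGAAG stands in those of Srsf7, Sf3a2, Sf3b2 and Snrpb2, on either strand. Windows can hold several motifs. All the motifs searched except CCAAT and TATAAA contain CpGs, and the shares of these were higher among promoters with a ratio of at least 0.6.

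Other splicing genes, in 12 lists with no member among them, also had induced peaks. Of 148 such genes, 33 (22.3%, 15.9 to 29.9) had an induced peak within 1 kb, with a median score of 81.05, beside 13.4% of all protein-coding genes and 23.0% of those with CpG-rich promoters. A non-induced peak within 1 kb was found at 4 (2.70%, 0.741 to 6.78), beside 1.59% of all genes. Whether the members differ from these genes was not tested. Among proteins named Snrnp outside the minor spliceosome list, 2 of 4 were marked, Snrnp70 of the U1 snRNP (203.97) and the helicase gene Snrnp200 (74.97). Snrnp25, Snrnp35 and Snrnp48 are in the minor spliceosome list and had no peak of either list within 5 kb. Of the tri-snRNP and B complex list 4 of 10 were, Usp39 (93.54), Ddx23 (81.05), Smu1 (57.23) and Ik (52.18), and Txnl4a had a non-induced peak (106.03). Of the exon junction complex, which marks spliced mRNA, 3 of 8 were, Acin1 (194.41), Eif4a3 (116.66) and Rnps1 (95.04).

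Of the hnRNP-like and broadly expressed RNA-binding proteins 8 of 27 had an induced peak, among them the cold-inducible gene Cirbp (228.92), Taf15 (103.57) and Elavl1 (99.34), and Tia1 had a non-induced one (64.49). The peak of Cirbp was above that of every member. Of the SR-like proteins and SR kinases 2 of 15 (13.3%) had one, Son (138.45) and Srpk1 (55.0), and Rbm25 had a non-induced peak (51.4). In the list named tissue-restricted splicing regulators 4 of 26 (15.4%) had an induced peak, and Elavl4 had a non-induced one (50.05). The 4 were Khdrbs3 (65.24), Rbfox2 (59.44), Celf6 (57.12) and Esrp2 (50.52). The name is that of the list, and not every gene in it need be restricted to certain tissues. The shares of these 2 lists were near the 13.4% of all genes.

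In the remaining lists 1 to 3 genes each had an induced peak within 1 kb, and the shares lay between 11.1% and 25.0%, beside the 13.4% of all genes. The Prpf19 complex and catalytic core had 3 of 15 (Isy1 80.97, Aqr 64.55 and Cwc22 59.37). The helicases had 2 of 8 (Ddx42 77.2 and Ddx39b 50.48) and the snRNP assembly complex 2 of 9 (Gemin6 212.74, through the peak it shares with Srsf7, and Gemin2 65.85). Recognition of the branch point and 3′ splice site had 1 of 9 (Sf1 92.75), the minor spliceosome 1 of 9 (Rnpc3 131.34) and the LSm proteins 1 of 8 (Lsm7 102.06). None of these 6 lists had a non-induced peak within 1 kb, beside 1.59% of all genes. With at most 15 genes per list, this is not read as particular to these lists.

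**Figure D4:**
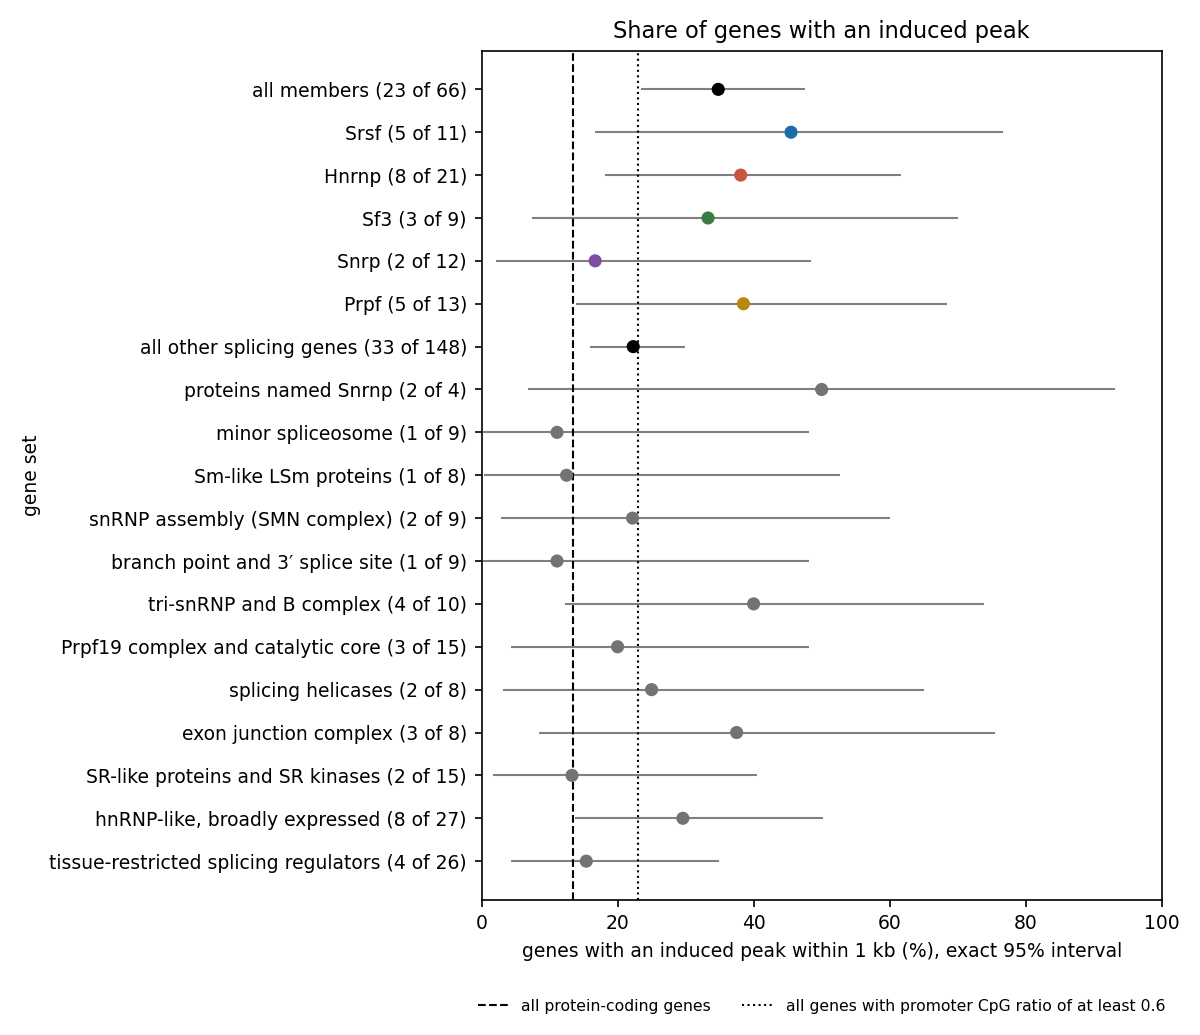
Percent of genes with an induced peak within 1 kb of a start or end, with exact 95% intervals, for the members, their 5 families and the 12 lists of other splicing genes (number of genes in parentheses). The dashed line is the share of all protein-coding genes (13.4%). The dotted line is that of genes with a CpG ratio of at least 0.6 (23.0%), which the intervals of all 5 families include. The members as a whole lie at 34.8% and Snrp at 16.7%. The row of proteins named Snrnp leaves out those in the minor spliceosome list.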

How the data were processed

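ChIP-seq used 7 µg of chromatin and 5 µg of HA antibody after enzymatic fragmentation, per the labels' protocols. Bowtie2 and mm10 are named without versions, per the submitters' processing notes. The peak names in the deposited lists show that the authors called peaks with MACS. No source used here gives its version or threshold. The names of both lists hold inp, which may stand for input, but how input was used is not stated. The deposited lists give each peak's position and score, with no read counts. Lists were assigned to libraries by their marks for with and without induction.

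A gene was marked when a peak edge lay within 1 kb or 5 kb of its start or end in the RefSeq table of GRCm38.p6. Strand, start sites and sequences came from RefSeq promoter windows of the same assembly, matched for 58 of 66 members; of the marked members Hnrnpll and Hnrnpul2 had no entry. Intervals of shares are exact (Clopper-Pearson, 95%), and 3 counts set the limit of a share of 0. No gene set or list was tested. The marking was tested on simulated data. Members and lists were chosen with earlier results of these data known. Named were members with a peak within 5 kb, most others by name, and per list of other splicing genes up to 4 by induced score and up to 2 by non-induced score. A few results that this rule takes in are left out. Alternatives were score limits (the joint median of 61.6, and 100), lists of equal size, midpoint distance, start sites only, 1 member per 100 kb, the nearest border, and windows of 500 bp and 2 kb. Scripts ran in Python 3.11.15 with SciPy 1.17.1, pandas 2.3.3, numpy 2.4.6 and matplotlib 3.10.9.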

Additional observations from a re-analysis of the deposited data

How the results depend on the processing

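The number of members with an induced peak within 1 kb (23) was between 19 and 23 under all alternatives except a score of at least 100, which left 10. Within 5 kb (25) it was between 20 and 25, and 11 at that score. Members with a non-induced peak within 1 kb stayed at 0, except that 1 (Prpf4b) had one within 1 kb of an annotated start. The 4 members with a non-induced peak within 5 kb became 2 at or above the joint median score, 2 with lists of equal size, 2 where the nearest border was their own, 2 within 2 kb and 0 at a score of at least 100. Counting start sites only gave 22 members, with Hnrnph1 and Srsf11 added and Prpf8, Hnrnpll and Hnrnpul2 lost; the last 2 have no promoter entry. The lists carry no depth, so a missing peak does not show that the protein was absent. No paired analysis was possible because there is 1 list per condition.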

Other observations

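These values were picked after they were seen. Between 1 kb and 5 kb from a border, Phf5a, which encodes a small Sf3b subunit named outside the Sf3 families, had an induced peak of 278.82, above that of every member. Of the genes of the snRNP assembly complex, Gemin5 (74.49) and Gemin7 (57.79) had an induced peak only in this wider window, which brought that list to 4 of 9. Ewsr1, a relative of Taf15, had both an induced (65.8) and a non-induced peak (69.11) within 5 kb and none within 1 kb.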
